A study of Mus musculus with 6 samples.

Results

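Glycogen is the branched glucose polymer in which cells store sugar. It is primed by glycogenin, lengthened by glycogen synthase, branched by the branching enzyme and broken down by glycogen phosphorylases in the cytosol and by acid alpha-glucosidase in lysosomes. Chains that grow too long or are branched too little become polyglucosan, an insoluble form that laforin and malin help to prevent, and loss of HOIL-1 in people and mice is known to lead to polyglucosan deposits in muscle. The genes described here are 9 genes of this metabolism, chosen by symbol and not by their values: Gyg, Gys1 and Gbe1 for synthesis, Pygm, Pygl, Pygb and Gaa for breakdown, and Epm2a and Nhlrc1 for polyglucosan quality control. Each was found in the table of 23518 genes and each had enough coverage to be tested.

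RNA was taken from mouse ear skin on day 1 of imiquimod treatment, in 3 HdR samples and 3 wild-type (WT) samples. HdR is the label of the mutant genotype, read from the series' design text as mice whose HOIL1 protein, the product of Rbck1, lacks its RING1 domain. Both genotypes received 10 mg of cream with 5% imiquimod, a Toll-like receptor agonist that inflames mouse skin, so no untreated skin enters the comparison. The labels used here give no strain, age or sex and do not say whether the change to HOIL1 is limited to some cells. Nor do they say which cells or how many animals stand behind a sample, so p-values measure the spread between these samples only.

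The deposited values are aligned bases summed per gene, and a level is the coverage of a gene in bases for each Mb of scaled library size. Depth ran from 4433 to 5264 Mb in the HdR libraries and from 5038 to 5966 Mb in the WT libraries. A log2 change is the mean log2(coverage + 1) of HdR less that of WT, a scale that understates the change of low genes. Adjusted p-values come from limma with Benjamini-Hochberg adjustment over the 15049 genes tested, and a gene passes under 0.05. By this rule 12.7% of the genes rose in HdR and 17.9% fell, 30.6% in all. Over these genes the median log2 change was -0.13, or -0.41 when libraries were scaled to their total bases, and a gene's change is to be read against that shift. Calls numbered 1904 up and 2701 down, which became 917 and 4305 under total scaling and 2363 and 2084 under quantile scaling. Long transcripts had less coverage in HdR libraries than in WT libraries. The slope of coverage on log2 transcript length ran from -0.272 to -0.0805 in HdR and from 0.0404 to 0.247 in WT, with HdR replicate 2 lowest in HdR and WT replicate 2 lowest in WT. Genotype and length trend cannot be told apart at the level of the libraries, so values with the trend removed, which is an alternative fit, are given beside the results. Rbck1 fell in HdR under each of the 23 alternative fits, and its coverage was 23.9, 13 and 19.7 in HdR samples, against 66.6, 55.1 and 64.1 in WT samples (a log2 change of -1.70 at a limma adjusted p = 0.00438). The keratin gene Krt14, which marks the basal epidermis, was at 2193 to 2789 in HdR and 3558 to 4530 in WT. Among 14 epidermal keratinocyte markers 4 fell, Krt14 included, and 0 rose, 28.6% against 30.6% of all genes tested. With the length trend removed 1 of these markers rose and 2 fell. In bulk RNA, fewer cells of a type and less RNA per cell cannot be told apart.

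Of the 9 glycogen genes, 1 changed between the genotypes. Pygb, the brain-type glycogen phosphorylase, fell, and the other 8 did not pass the test. The share of members called was 11.1%, below the 30.6% of all genes tested. No member rose by limma. In limma-trend without a covariate, as with voom, none had a change above 0 at an unadjusted p under 0.05. At most 1 member did in any of the alternative fits. The median log2 change of the members was -0.27, against -0.13 for all genes tested. WT replicates 1 and 2 moved the count most: without WT replicate 1, 0 members passed, where 2.88% of all genes did, and without WT replicate 2, 4 fell (Gys1, Pygm, Pygb and Gaa), where 40.5% of all genes passed. The replicate numbers were taken as pairs from a correlation within these same data, given with the methods. The labels state no pairing, and HdR 3 with WT 1 (r = 0.159) came close to pair 1 (r = 0.163). With the replicate number as a block, Pygm, the muscle-type phosphorylase, fell as well. The count was then 2 of 9, or 22.2%, against 45.5% of all genes tested, 27.2% of which fell and 18.3% rose. After removal of the length trend Pygb alone fell, where 8.48% of all genes fell and 10.9% rose, 19.4% in all. With both steps together Pygb and Pygm fell, where 14.6% of all genes fell and 16.5% rose, 31.1% in all.

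**Figure D1:**
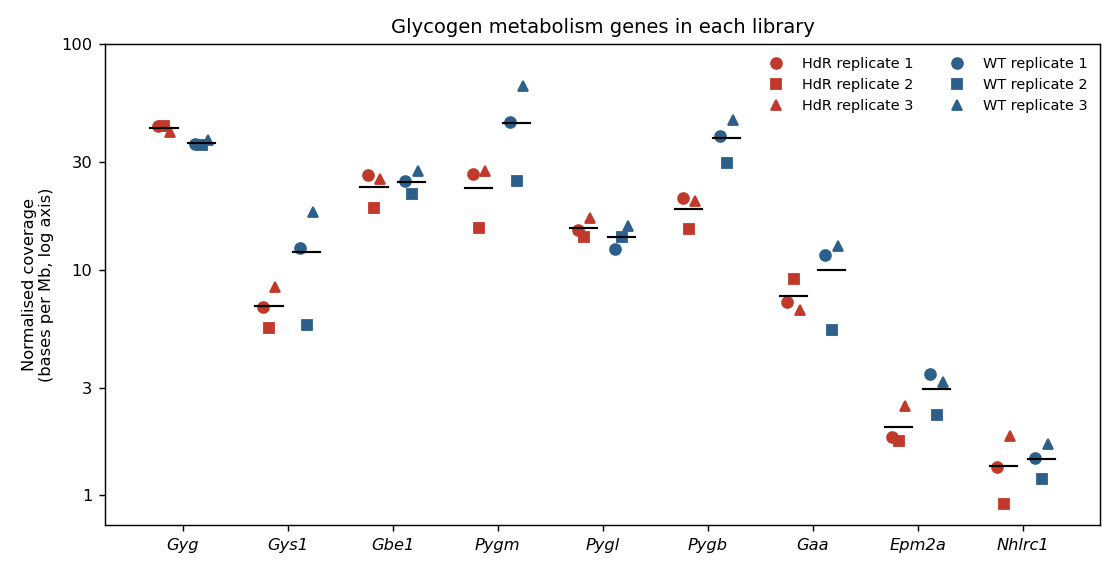
Coverage of the 9 glycogen genes (bases per Mb of scaled library size, log axis) in each library, with HdR in red, WT in blue, a symbol for each replicate and a black bar at the mean of 3. The HdR points of Pygb, at 15.1 to 20.7, lie below all WT points, at 29.7 to 45.9, and the 2 genotypes overlap for all other genes except Gyg. Over all genes tested the genotypes do not overlap in 51.5%.

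Glycogen phosphorylase releases glucose 1-phosphate from the ends of glycogen chains, and mammals have a muscle, a liver and a brain type, each with a gene of its own. Pygb (ENSMUSG00000033059.7; chromosome 2, positions 150786735 to 150831758 of GRCm38, plus strand) had 20.7, 15.1 and 20.1 bases per Mb in HdR samples, against 39.0, 29.7 and 45.9 in WT samples. The highest HdR sample lay below the lowest WT sample, as in 30.7% of all genes tested. The mean was 18.6 ± 3.04 in HdR and 38.2 ± 8.13 in WT (SD, n = 3 each). Its log2 change of -0.99 passed (SE 0.21; 95% interval -1.46 to -0.52; limma adjusted p = 0.0143). Removal of the length trend left it at -0.72 (limma adjusted p = 0.0231). Pygb did not pass without WT replicate 1 (log2 change -0.96, limma adjusted p = 0.0660). On removal of that trend it did not pass when HdR replicate 1, HdR replicate 2, WT replicate 1 or WT replicate 3 was left out (limma adjusted p = 0.0520 to 0.106), while the change stayed between -0.75 and -0.60. Pygb was lower in HdR in all 23 alternative fits and passed in 18 of them.

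Pygm (ENSMUSG00000032648.14; chromosome 19, 6384399 to 6398459, plus strand) encodes the phosphorylase of skeletal muscle, whose loss causes McArdle disease in people. Its coverage was 26.6, 15.3 and 27.3 in HdR samples, against 45.1, 24.6 and 64.8 in WT samples. The genotypes overlapped, because WT replicate 2 lay below the 2 higher HdR samples. Within each replicate number the HdR sample was the lower, by 0.74, 0.65 and 1.22 on the log2 scale. The log2 change was -0.87 (SE 0.35; limma adjusted p = 0.0824), and with the replicate block its SE was 0.15 and it passed (limma adjusted p = 0.00395). It also passed without WT replicate 2 (log2 change -1.22, limma adjusted p = 0.0111). After removal of the length trend the change was -0.78, which passed with the block (limma adjusted p = 0.0115) and not without it (limma adjusted p = 0.122).

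Pygl (ENSMUSG00000021069.17; chromosome 12, 70190811 to 70231488, minus strand) encodes the liver-type phosphorylase, which leukocytes also use. It had 14.9, 13.9 and 17.0 bases per Mb in HdR samples, against 12.3, 13.9 and 15.6 in WT samples. The genotypes overlapped, and the log2 change was 0.12 (SE 0.17; 95% interval -0.26 to 0.51; limma adjusted p = 0.592). The sign of this change was negative with total scaling. The windows at the starts of the 3 phosphorylase genes are printed so that the 3 starts can be set side by side. They are RefSeq sequences of GRCm38.p6 that hold 250 bases before and 50 after the RefSeq start, and capitals mark GC boxes (GGGCGG on either strand).
Pygb, chr2:150786546-150786845, plus strand: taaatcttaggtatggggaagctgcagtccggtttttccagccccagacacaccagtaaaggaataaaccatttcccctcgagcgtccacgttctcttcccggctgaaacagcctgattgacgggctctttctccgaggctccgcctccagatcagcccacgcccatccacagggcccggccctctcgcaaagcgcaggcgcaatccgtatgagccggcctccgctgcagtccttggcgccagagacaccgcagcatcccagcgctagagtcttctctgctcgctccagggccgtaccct
Pygm, chr19:6384158-6384457, plus strand: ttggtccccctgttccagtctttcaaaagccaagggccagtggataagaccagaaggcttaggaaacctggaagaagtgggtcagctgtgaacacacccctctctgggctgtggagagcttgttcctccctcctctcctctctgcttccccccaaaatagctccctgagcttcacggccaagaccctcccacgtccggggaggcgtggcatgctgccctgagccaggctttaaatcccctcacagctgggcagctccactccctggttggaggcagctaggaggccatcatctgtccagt
Pygl, chr12:70227634-70227933, minus strand: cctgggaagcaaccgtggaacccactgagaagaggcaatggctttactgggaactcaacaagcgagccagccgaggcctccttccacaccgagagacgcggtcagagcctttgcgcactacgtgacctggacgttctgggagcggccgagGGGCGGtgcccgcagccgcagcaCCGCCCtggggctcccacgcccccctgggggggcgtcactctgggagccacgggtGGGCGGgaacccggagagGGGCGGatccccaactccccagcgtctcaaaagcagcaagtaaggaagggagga
The Pygl window is set on the start of 1 of 2 GENCODE coding transcripts, and that of the other, which bounds the gene given above, lies 3805 bases upstream. The RefSeq starts on which the Pygb and Pygm windows are set lie within 61 bases of the starts of the genes given above. The RefSeq start of the Gyg window, printed further on, lies 201 bases inside its gene. The Pygl window held 4 GC boxes, and those of Pygb and Pygm held none. GC boxes occur in 35.7% of all 32851 RefSeq windows of this length. All 3 windows lacked the E-box CACGTG, the CCAAT box (CCAAT) and the TATA box (TATAAA), each searched on both strands. The longest protein-coding transcripts of Pygm and Pygb shared 13 stretches of 50 bases, out of 2825 in Pygm and 3860 in Pygb, and no other pair of members shared any.

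The share of each gene in the phosphorylase transcripts does not depend on how the libraries are scaled. Per kb of transcript, Pygl made up 24.6%, 32.5% and 26.9% of the summed phosphorylase coverage in HdR samples, against 13.2%, 21.5% and 12.6% in WT samples. The genotypes did not overlap, and the mean share was 28.0% ± 4.08 in HdR and 15.8% ± 4.96 in WT (SD, n = 3 each; two-sided exact permutation p = 0.1, the smallest that 3 against 3 samples allow). The difference of 12.2 percentage points was 12.1 with the length trend removed and lay between 9.96 and 15.1 when single libraries were left out. Pygb made up 27.4%, 28.4% and 25.7% in HdR samples, against 33.7%, 37.0% and 29.9% in WT samples, which did not overlap either (exact permutation p = 0.1). The Pygb difference of -6.36 points became -3.88 once the length trend was removed (exact permutation p = 0.3). Pygm held the largest share in every library, at 48.0%, 39.0% and 47.5% in HdR samples and 53.0%, 41.5% and 57.5% in WT samples, and its shares overlapped (exact permutation p = 0.4). The summed coverage of the 3 genes per kb was 19.3, 13.6 and 20.01 in HdR samples, against 29.6, 20.6 and 39.2 in WT samples, and did not overlap (exact permutation p = 0.1).

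**Figure D2:**
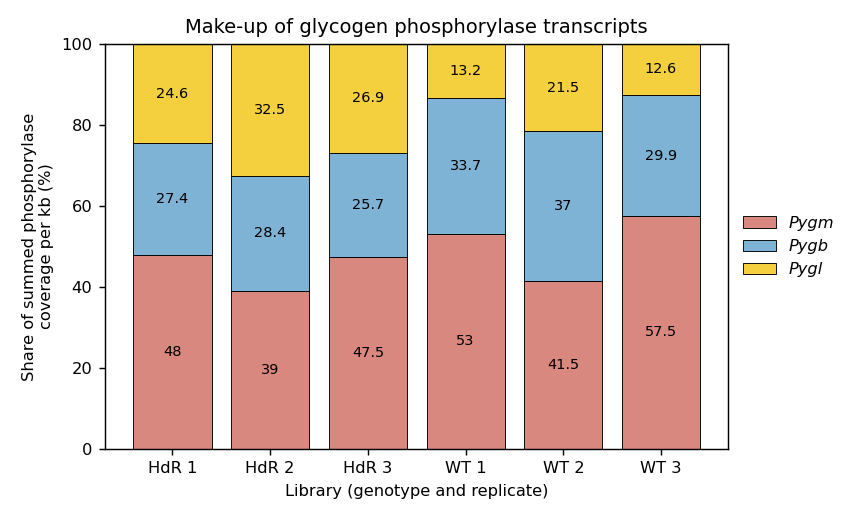
Share of each phosphorylase gene in the summed phosphorylase coverage per kb of transcript (%), as a stacked bar for each library, HdR left of WT. Pygl takes 24.6% to 32.5% in HdR libraries and 12.6% to 21.5% in WT libraries.

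Pygm is a gene of skeletal muscle, and muscle markers were detected in every library. The summed coverage of 15 skeletal muscle markers was 6384 to 7353 bases per Mb in HdR samples, against 3193 to 4624 in WT samples, with no overlap and with no marker at 0. Of these markers 7 rose and 0 fell by limma-trend, with 2 lower at an unadjusted p under 0.05, while voom and the replicate block each called 7 up and 2 down. Pygm was 0.408%, 0.208% and 0.428% of the muscle marker sum in HdR samples, against 0.983%, 0.769% and 1.40% in WT samples, with no overlap. Both the sum and this share keep the length trend, and neither was computed with the trend removed. The markers were uneven by transcript length. The short Mylpf, a myosin light chain gene with a transcript of 766 nt, had 1098, 1610 and 1117 bases per Mb in HdR samples, against 594, 558 and 461 in WT samples, and rose (log2 change 1.23, limma adjusted p = 0.0110). The long Myh1, a myosin heavy chain gene of 6081 nt, had 150, 78.2 and 148 in HdR samples, against 320, 126 and 386 in WT samples (log2 change -1.05, limma adjusted p = 0.0802). After removal of the length trend its log2 change was -0.59 (limma adjusted p = 0.236). With the replicate block Myh1 fell, both as it stood (limma adjusted p = 0.00224) and without the trend (limma adjusted p = 0.027). Myh1 was lowest in replicate 2 of either genotype, as were Pygm, Pygb, Gys1, Gbe1, Epm2a and Nhlrc1 among the glycogen genes. Ckm, with a transcript of 2742 nt, rose as it stood (log2 change 1.04, limma adjusted p = 0.0184). It also rose with the trend removed (1.10, limma adjusted p = 0.0223). Myh1 and Ckm were chosen after their values were seen. Removal of the length trend left 3 of the 15 markers up and 0 down, with 6 higher and 0 lower at an unadjusted p under 0.05. With the block added to it, 6 rose and 3 fell. The part of muscle content in the Pygm values was not tested.

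**Figure D3:**
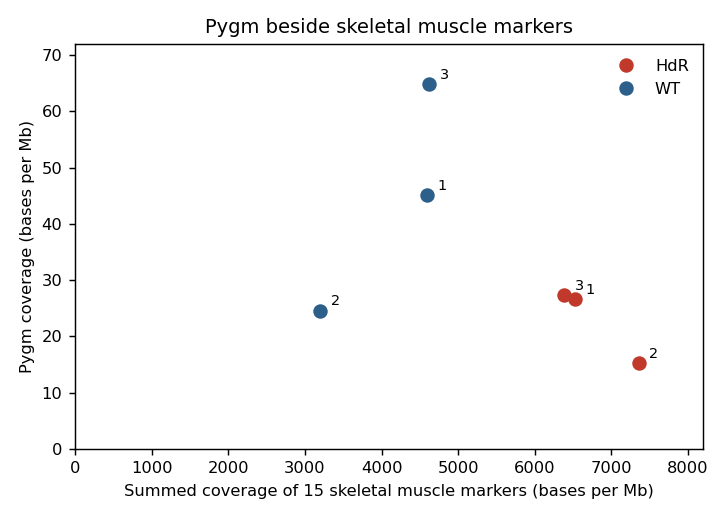
Pygm coverage (bases per Mb) against the summed coverage of 15 skeletal muscle markers (bases per Mb) in each library, with the replicate number beside each point, HdR in red and WT in blue. The HdR libraries lie to the right, at 6384 to 7353 for the markers, with Pygm at 15.3 to 27.3, and the WT libraries lie to the left.

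The synthesis genes did not pass the test. Gyg (ENSMUSG00000019528.18; chromosome 3, 20122084 to 20155317, minus strand) encodes glycogenin, the protein that starts a glycogen particle by adding glucose to itself. It had the highest mean coverage per kb of the 9 genes in both genotypes. In WT its range per kb, 18.6 to 19.4, lay within that of Pygm, 8.55 to 22.6. The coverage of Gyg was 43.4, 43.1 and 40.8 bases per Mb in HdR samples, against 36.0, 35.8 and 37.4 in WT samples. The genotypes did not overlap, as in 51.5% of all genes tested, and the log2 change was 0.22 (SE 0.14; limma adjusted p = 0.254). It was 0.03 after removal of the length trend and -0.10 with total scaling, so the sign rests on the scaling. The start of Gyg is printed for its E-box, which it shares with Gaa alone among the members; the letters are as above, with the E-box CACGTG and the GC box in capitals.
Gyg, chr3:20155067-20155366, minus strand: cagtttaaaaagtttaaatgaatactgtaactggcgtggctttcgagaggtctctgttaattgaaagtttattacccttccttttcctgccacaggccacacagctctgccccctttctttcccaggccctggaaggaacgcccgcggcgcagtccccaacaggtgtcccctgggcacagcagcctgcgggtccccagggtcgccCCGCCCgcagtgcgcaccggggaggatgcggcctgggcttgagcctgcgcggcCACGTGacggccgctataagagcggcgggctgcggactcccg
The E-box CACGTG occurs in 7.15% of the RefSeq windows.

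Gys1 (ENSMUSG00000003865.16; chromosome 7, 45434844 to 45456619, plus strand) encodes the glycogen synthase of muscle and most other tissues. It had 6.84, 5.51 and 8.37 bases per Mb in HdR samples, against 12.4, 5.65 and 17.9 in WT samples. WT replicate 2 stood within the HdR range, and the other WT samples above it. The log2 change was -0.61 (SE 0.35; limma adjusted p = 0.202), and with the replicate block it did not pass (limma adjusted p = 0.0519). Without WT replicate 2 it was -1.01 and passed (limma adjusted p = 0.0118), as it did when the length trend was removed from the same 5 libraries (log2 change -0.76, limma adjusted p = 0.0273). In all 6 libraries without the trend it was -0.37 and did not pass. Exons of Gys1 share 310 of 4789 bases with Ruvbl2 on the opposite strand, and since no strand is stated for the counting, reads of that stretch are uncertain. Ruvbl2 itself had a mean of 20.1 ± 2.27 in HdR and 17.9 ± 1.18 in WT. The log2 ratio of Gys1 to the summed phosphorylases, each per kb, was -3.37, -3.18 and -3.14 in HdR samples, against -3.13, -3.74 and -3.01 in WT samples. The genotypes overlapped (difference 0.062, exact permutation p = 1), and without WT replicate 2 the difference was -0.163 (exact permutation p = 0.2). The liver glycogen synthase gene Gys2 was at 0.218, 0.657 and 0.343 in HdR samples, against 0, 0.249 and 0.0635 in WT samples, too low to be tested.

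Gbe1 (ENSMUSG00000022707.16; chromosome 16, 70313949 to 70569716, plus strand) encodes the branching enzyme, whose loss in people also leads to polyglucosan. Its coverage was 26.2, 18.7 and 25.1 in HdR samples, against 24.6, 21.6 and 27.2 in WT samples. The ranges overlapped, with HdR replicate 2 below all WT samples and WT replicate 3 above all HdR samples. The log2 change was -0.07 (SE 0.19; 95% interval -0.49 to 0.34; limma adjusted p = 0.774). It was 0.18 with the length trend removed, so it had no stable sign.

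Gaa (ENSMUSG00000025579.14; chromosome 11, 119267887 to 119285454, plus strand) encodes acid alpha-glucosidase, which breaks down glycogen inside lysosomes and is deficient in Pompe disease. It had 7.21, 9.09 and 6.65 bases per Mb in HdR samples, against 11.6, 5.42 and 12.7 in WT samples. WT replicate 2 was the lowest of all 6 samples and HdR replicate 2 the highest of HdR. The log2 change was -0.27 (SE 0.29; limma adjusted p = 0.492), and it was -0.03 with the length trend removed. Without WT replicate 2 it was -0.60 and passed (limma adjusted p = 0.0404). Among 24 other lysosomal genes 2 rose and 2 fell, 16.7% against 30.6% of all genes tested, with a median log2 change of -0.06. Hexa, whose product helps to break down gangliosides, rose (log2 change 0.68), and Tfe3, a transcription factor gene of lysosome formation, fell (log2 change -0.57). Removal of the length trend left 2 up and 0 down, with 2 lower at an unadjusted p under 0.05, and the block added to it gave 6 up and 2 down. Without HdR replicate 1, HdR replicate 2, WT replicate 1 or WT replicate 3 the count called was 0 to 1, without HdR replicate 3 it was 2, and voom called 5 up and 2 down. Calls over all genes were 1037 up and 1775 down without HdR replicate 1, and 773 and 1139 without HdR replicate 2. They were 197 and 230 without WT replicate 1, 607 and 746 without WT replicate 3, and 1538 and 2016 without HdR replicate 3. Over all genes voom called 3408 up and 4647 down.

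The quality control genes had the lowest coverage of the 9. Epm2a (ENSMUSG00000055493.4; chromosome 10, 11343404 to 11459644, plus strand) encodes laforin, the phosphatase that removes phosphate from glycogen. It had 1.81, 1.74 and 2.48 bases per Mb in HdR samples, against 3.45, 2.26 and 3.19 in WT samples. HdR replicate 3 lay above WT replicate 2, and the log2 change was -0.39 (SE 0.20; 95% interval -0.85 to 0.06; limma adjusted p = 0.156). It was -0.22 without the length trend. Nhlrc1 (ENSMUSG00000044231.3; chromosome 13, 47012557 to 47014850, minus strand) encodes malin, the ubiquitin ligase that partners laforin, from a single exon. It had 1.33, 0.913 and 1.82 bases per Mb in HdR samples, against 1.47, 1.18 and 1.68 in WT samples. The genotypes overlapped, and the log2 change was -0.07 (SE 0.20; 95% interval -0.53 to 0.39; limma adjusted p = 0.817). These levels equal 10.7 to 26.4 read pairs of 300 bases in HdR libraries and 22.6 to 39.7 in WT libraries. Counts this low limit which change of Nhlrc1 can be detected, and the size of that limit was not tested.

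**Figure D4:**
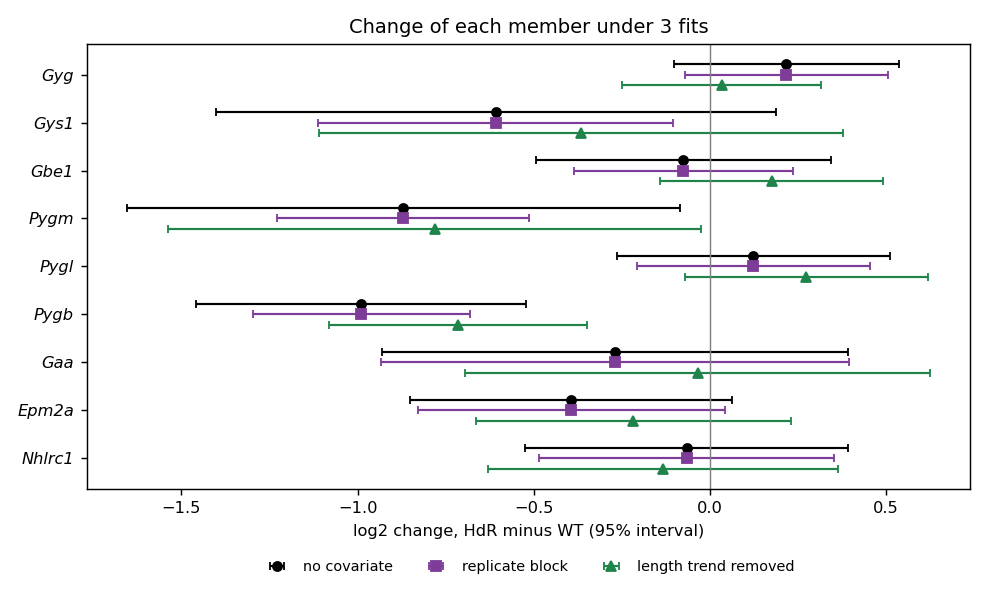
Change of each of the 9 genes as log2 coverage in HdR minus WT, with its 95% interval, from limma without a covariate (black), with the replicate number as a block (purple) and with the length trend removed (green). Pygb lies left of 0 in the 3 fits, at -0.99, -0.99 and -0.72.

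Ordered by coverage per kb of transcript, HdR samples had Gyg first (22.1 ± 0.735), then Pygm (8.02 ± 2.35), Gbe1 (6.25 ± 1.08), Pygl (4.85 ± 0.486), Pygb (4.76 ± 0.777), Gaa (2.11 ± 0.351), Gys1 (1.88 ± 0.389), Epm2a (0.612 ± 0.125) and Nhlrc1 (0.590 ± 0.198). In this order Gyg stood clear of Pygm, Pygb of Gaa and Gys1 of Epm2a, and the other neighbours overlapped. In WT samples the order was Gyg (18.9 ± 0.443), Pygm (15.6 ± 7.004), Pygb (9.78 ± 2.08), Gbe1 (6.56 ± 0.755), Pygl (4.43 ± 0.513), Gys1 (3.27 ± 1.67), Gaa (2.73 ± 1.08), Epm2a (0.903 ± 0.189) and Nhlrc1 (0.628 ± 0.109). There Pygb stood clear of Gbe1, Gbe1 of Pygl and Gaa of Epm2a. By mean, Pygb thus ranked below Gbe1 and Pygl in HdR, where its range overlapped both, and above both in WT, where it stood clear.

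By the root mean square difference of centred log2 levels over the 6 libraries, the genes closest to Pygb were Asxl1, a chromatin regulator gene (0.033), Mtmr3, a lipid phosphatase gene (0.042), and Tbc1d5, a membrane traffic gene (0.044). Asxl1 had 20.6, 15.1 and 20.9 bases per Mb in HdR samples, against 40.4, 28.9 and 46.3 in WT samples. Among the 9 genes the closest pair was Gbe1 and Nhlrc1 (0.097), and Gys1 and Pygm were at 0.2003.

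Around the 9 genes stand the enzymes and regulators that supply, switch and anchor them. Of 31 such genes 29 were tested, 1 rose and 5 fell, 20.7% against 30.6% of all genes tested, with a median log2 change of -0.21. With the replicate block 2 rose and 8 fell, 34.5% against 45.5%. Removal of the length trend left 2 up and 1 down, 10.3% against 19.4%, and the block added to it gave 4 up and 3 down. Without WT replicate 1 or WT replicate 3 no gene of the list passed by limma, 2 fell without HdR replicate 2, and 1 rose and 3 fell without HdR replicate 3. Calls over all genes were 197 up and 230 down without WT replicate 1, and 607 and 746 without WT replicate 3. They were 773 and 1139 without HdR replicate 2, and 1538 and 2016 without HdR replicate 3. The genes of the list were counted by function. Of the 5 subunits of phosphorylase kinase, the enzyme that switches phosphorylase on, 2 fell. Phka2, the alpha subunit of liver and other tissues, had 16.9, 9.11 and 18.6 bases per Mb in HdR samples, against 27.6, 29.1 and 37.0 in WT samples (log2 change -1.07, limma adjusted p = 0.0211), and it fell with the length trend removed too (-0.74, limma adjusted p = 0.0422). Phkb, the beta subunit, had 31.8, 19.6 and 29.1 in HdR samples, against 44.7, 39.7 and 43.8 in WT samples (log2 change -0.68; -0.27 with the length trend removed, where it did not pass).

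Of the 7 subunits of AMPK, the energy sensor kinase that can bind glycogen, 2 fell. Prkaa2, a catalytic subunit, had a log2 change of -0.96 and Prkab2, a glycogen-binding subunit, of -1.08, and neither passed with the length trend removed (-0.43 and -0.70), though Prkab2 did when the block was added (limma adjusted p = 0.0109). Protein phosphatase 1 reverses phosphorylase kinase and is brought to glycogen by targeting subunits. Its catalytic subunit gene Ppp1ca rose, with 428, 550 and 342 bases per Mb in HdR samples, against 251, 334 and 227 in WT samples (log2 change 0.69, limma adjusted p = 0.0489). Of the 6 targeting subunits tested, Ppp1r3b fell (log2 change -0.62, limma adjusted p = 0.0462), and neither it nor Ppp1ca passed with the length trend removed (-0.29 and 0.36), though Ppp1ca did when the block was added (limma adjusted p = 0.0436). With the block Ppp1r3c, another targeting subunit, rose (0.51, limma adjusted p = 0.0226), and the kinase genes Gsk3a and Gsk3b, which inhibit glycogen synthase, fell (-0.47 and -0.48), as did Phka1 (-0.75). With the length trend removed and no block, none of Ppp1r3c, Gsk3a, Gsk3b and Phka1 passed (0.565, -0.544, 0.059 and -0.286). With both steps Ppp1r3c (limma adjusted p = 0.03) and Gsk3a (limma adjusted p = 0.0129) passed, and Gsk3b and Phka1 did not. Ppp1r3a, the targeting subunit of muscle, passed with the length trend removed (0.66, limma adjusted p = 0.0386). The 4 genes of UDP-glucose supply, Ugp2, Pgm1, Pgm2 and Pgm2l1, did not pass in these fits, with 0 to 2 at an unadjusted p under 0.05, and voom called 1 of them lower.

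**Figure D5:**
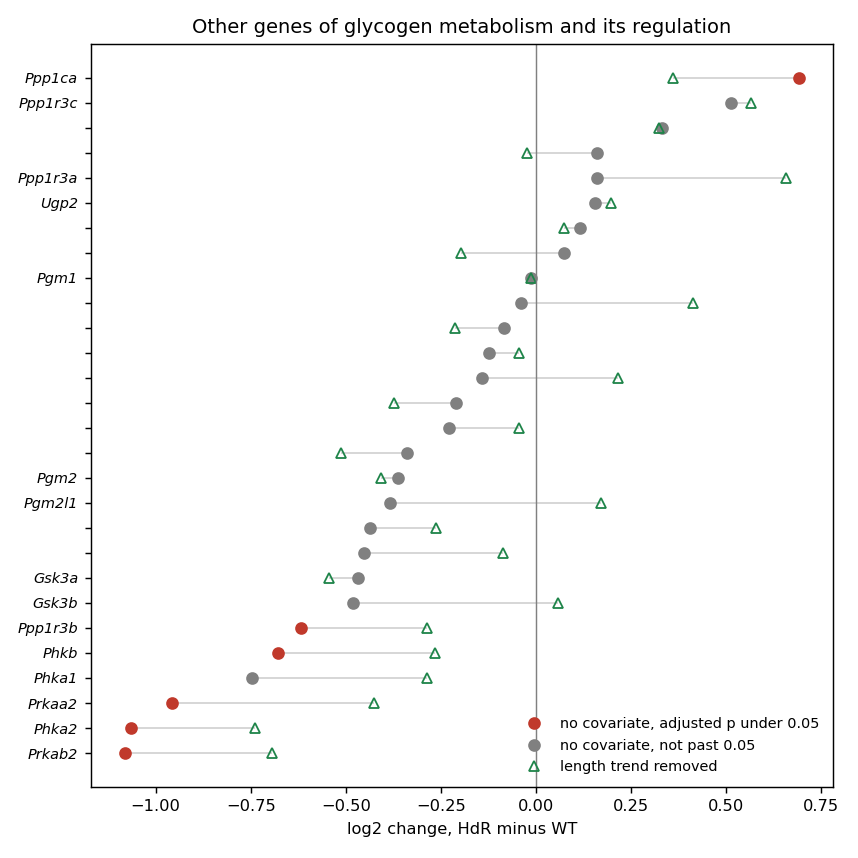
Change of 28 tested pathway genes outside the 9, with names beside those the text describes, as log2 coverage in HdR minus WT, sorted by the change without a covariate (filled, red where the adjusted p is under 0.05) with the value after removal of the length trend as an open triangle. The 6 red points are Ppp1ca above 0 and Ppp1r3b, Phkb, Prkaa2, Phka2 and Prkab2 below 0.

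Marker RNA of the cell types that could hold these transcripts was uneven between the genotypes, in sums that keep the length trend. Summed neutrophil markers were at 789 to 3271 bases per Mb in HdR samples and 155 to 223 in WT samples (8 of 10 tested rose), and monocyte and macrophage markers at 3393 to 3828 in HdR samples and 1260 to 2382 in WT samples (8 of 15 rose). Adipocyte markers were at 2196 to 3148 in HdR samples and 722 to 752 in WT samples (5 of 9 rose). The adipocyte markers that did not rise all had a log2 change below 0, and with the block 5 rose and 1 fell. Epidermal keratinocyte markers were at 9231 to 11000 in HdR samples and 12640 to 14420 in WT samples (4 of 14 fell), and hair follicle markers at 488 to 732 in HdR samples and 1093 to 1440 in WT samples (11 of 14 fell). None of these sums overlapped. Of the keratinocyte markers 6 fell with the block, and 1 rose and 2 fell with the length trend removed. Over all genes tested 12.7% rose and 17.9% fell. The shares were 18.3% and 27.2% with the block, and 10.9% and 8.48% with the length trend removed. Fibroblast markers overlapped, at 6310 to 7863 in HdR samples and 5647 to 8018 in WT samples (1 of 9 rose and 2 fell, or 2 and 4 with the block). No marker in these lists was at 0 in all libraries. The part of these cell types in the values of Pygb, Pygm and Pygl was not tested.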

How the data were processed

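Total RNA of ear skin was isolated with TRIzol and RNeasy kits, and libraries were built with a NEBNext Ultra II kit for a NovaSeq instrument, per the labels' protocols. The deposited table holds signal, read from its values as coverage summed in aligned bases per gene: 10.2% of values under 3000 bases are whole multiples of 300, the length of a pair of 150-base reads, against 0.333% for an even spread. The submitters' processing notes name the build GRCm38; the sources used here do not give the aligner, annotation or strand.

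Coverage was scaled by the trimmed mean of M values. A gene was tested, 15049 in all, if 3 or more libraries reached 1 base per Mb. HdR was set against WT in limma 3.58.1 under R 4.3.3 (limma-trend with robust variance, two-sided, on log2 of the value plus 1, threshold 0.05). A base per Mb equals 11.7 to 23.6 read pairs. The length trend, removed from each library, was fitted against the log2 length of the longest GENCODE M21 transcript by a natural spline with 4 degrees of freedom. Coding length was the longest protein-coding transcript. Other alternatives were voom with quality weights, quantile, total and median-of-ratios scaling, other filters, a pseudocount of 0.1, the replicate block and each library left out. Shares and ratios used exact permutation of all 20 splits.

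After removal of genotype means, libraries of the same number correlated across genes (r = 0.163, 0.416 and 0.366). Those of different number were at -0.377 to 0.159, and HdR 3 with WT 1, at 0.159, came close to pair 1. The numbers were taken as pairs because each same-number r was over 0.1, although the labels state no pairing. The text names all members, the LUBAC gene Rbck1, pathway genes called, up to 4 lysosomal and marker genes by smallest p and the 3 genes closest to the called member. The members and lists were chosen with earlier results of these data known. Results for some genes of these lists are not reported here.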

Additional observations from a re-analysis of the deposited data

How the results depend on the processing

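Of 205 alternative values for the 9 genes, 165 kept their direction and their side of the threshold, 11 came to pass, 5 (of Pygb) ceased to pass and 24 changed sign, at adjusted p of 0.235 to 0.983. Below, trend removal with a library left out means both changes at once. Gyg changed sign with total scaling (-0.096) and in trend removal with a library left out (-0.035 to 0.081), and not with single libraries left out alone (0.201 to 0.244). Gbe1 did so with quantile scaling (0.115), voom (0.006), trend removal with or without the block (0.176), trend removal by coding transcript length (0.165), trend removal with a library left out (0.118 to 0.254) and single libraries left out (-0.162 to 0.069). Pygl did so with total scaling (-0.175). Gaa did so with trend removal by coding transcript length (0.018) and in trend removal with a library left out (-0.356 to 0.148), and not with single libraries left out alone (-0.596 to -0.059). Nhlrc1 ran from -0.206 to 0.076 with single libraries left out and from -0.287 to 0.008 in trend removal with a library left out. The log2 ratio of Gys1 to the phosphorylases ran from -0.163 to 0.2045 with single libraries left out and was negative without WT replicate 2. By voom Gys1 (-0.79, limma adjusted p = 0.0297), Gaa (-0.66, 0.0258), Epm2a (-0.68, 0.0313) and Pygm (-0.85, 0.0095) passed too.

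Members called lower numbered 5 by voom, 2 with the replicate block, 2 with the block and the length trend removed, 0 to 4 with single libraries left out and 0 to 3 in trend removal with a library left out. The block changed no other call among the 9 genes than that of Pygm, and the paired sign-flip p of the phosphorylase shares was 0.25, the smallest 3 pairs allow. Over all genes the calls were 917 higher and 4305 lower with total scaling, 3408 and 4647 by voom, 1017 and 1127 without a filter, 2749 and 4094 with the block, 1621 and 1263 with the length trend removed, and 1556 and 1196 with it removed by coding transcript length. With single libraries left out they were 197 to 2657 higher and 230 to 3359 lower, and in trend removal with a library left out 71 to 2485 and 90 to 2122.

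The pathway list had 0 higher and 8 lower with total scaling, 3 and 10 by voom, 0 and 1 without a filter, 2 and 8 with the block, 2 and 1 with the length trend removed by either length and 4 and 3 with trend removal and block. It had 0 to 1 higher and 0 to 6 lower with single libraries left out, and 0 to 3 and 0 to 5 in trend removal with a library left out. Lysosomal genes numbered 0 higher with total scaling, 4 higher and 1 lower with quantile scaling, 5 higher by voom, 0 higher and 1 lower without a filter, 6 higher with trend removal and block, and 0 lower with trend removal by either length. They numbered 0 to 2 higher and 0 to 2 lower with single libraries left out, and 0 to 5 and 0 to 1 in trend removal with a library left out. Where limma called 0 genes of a list, 0 to 6 had an unadjusted p under 0.05 in that direction. The cause of these shifts was not tested. A minimum of 5 bases per Mb removed Epm2a and Nhlrc1, which depth limits most. Trend removal with a library left out and by coding transcript length were chosen after seeing the data.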
